A study of Mus musculus with 6 samples.

Results

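Semaphorins with their plexin receptors and ephrins with their Eph receptors were followed through the first day after dox was given to differentiating mouse ESCs carrying an inducible Snail transgene. The genes were chosen by name, as every symbol on the array beginning with Sema3 to Sema7, Plxna, Plxnb, Plxnc, Efna, Efnb, Epha or Ephb. This gave 50 of the 18193 genes read by probe sets with a single symbol: 20 semaphorins, 8 plexins, 5 ephrin-A, 3 ephrin-B, 9 EphA and 4 EphB genes, and 1 antisense transcript, Plxna4os1, which the prefix takes in and which encodes no plexin. They had 115 probe sets in all, and the brightest of each gene by mean was used.

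The cells were A2.snail ESCs, a modified A2lox line in which doxycycline (dox) turns on a Snail transgene. Snail is a transcriptional repressor known for switching epithelial cells to a mesenchymal state. All cultures grew as embryoid bodies in 10% FCS with the Wnt inhibitor DKK, and they differed in dox, which was added at 250 ng/mL on day 2 to the DKK + dox cultures and left out of the DKK cultures. RNA from days 2.25, 2.5 and 3, which are 6, 12 and 24 hours after dox, gave 6 Affymetrix arrays, with 1 array per condition and time. Cells without the transgene that received dox were not analysed here, so Snail and dox cannot be told apart. The probe set of Snai1, the gene for Snail, read 10.9 to 32.9 without dox and 14.5 to 29.6 with dox, under the low-signal limit of 37.2 on every array, so an induction of Snail was not seen on these arrays and the labels could not be checked by it. Whether that probe set covers the transgene was not tested, and the sources used here do not say whether the line is 1 clone.

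Semaphorins are secreted or membrane-bound ligands that bind plexins, in class 3 mostly through the neuropilin co-receptors, and they steer axons, endothelial cells and migrating mesenchyme. Ephrin-A ligands are held in the membrane by a lipid anchor and ephrin-B ligands span it. They bind Eph receptor tyrosine kinases on neighbouring cells and signal in both directions, which sorts cells and sets tissue boundaries in the early embryo. In gastrulation and in the vessels that form after it, members of both systems mark which cells mix and which stay apart.

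Values are linear intensities, and a difference is the DKK + dox value less the DKK value, both as log2(intensity + 20.6), which understates the change of genes of low signal. A difference at a single time is between 2 arrays and has no test. The test was a limma fit, over all genes, of a difference growing in proportion to hours after dox, and fitted differences are that trend read off at 24 hours. The p-values of the fit, adjusted over 14755 genes, set the fitted trend of a gene against the scatter of the arrays about it. They hold no spread between replicate cultures. Of the 50 guidance genes 45 exceeded the low-signal limit of 37.2 on at least 1 array and were tested. Epha6, Epha8, Sema3a, Sema3b and Sema3g stayed under it on every array. Another 6 exceeded it in 1 condition only (Epha10, Epha5, Plxna4, Sema3d, Sema4f and Sema6d), and a gene that is tested on such grounds had to differ between conditions.

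Guidance genes moved in both directions with dox, and the members of 1 family parted from each other. Of the 45 tested, 8 rose (Sema6d, Efnb1, Efna5, Ephb1, Epha7, Plxnb2, Sema4c and Efna2), against 8.32 percent of all genes tested. The 7 that fell were Sema4d, Sema3d, Sema3c, Sema3e, Sema4f, Epha2 and Plxnb1, against 6.38 percent of all genes tested. The remaining 30 did not pass. Semaphorins were 17 of the 45 tested and 5 of the 7 that fell. Of these 5, Sema3d and Sema4f exceeded the low-signal limit in DKK alone. Of the 5 ephrin-A and 3 ephrin-B genes tested 3 rose and none fell. Among the tested guidance genes the median size of the fitted difference was 0.49, and over all genes tested it was 0.23. Many calls depended on the times included and on the growing trend: leaving out the 6, 12 or 24 hour arrays kept 8, 10 and 4 of the 15 calls, and a model with an equal difference at every time kept 0, with 14 guidance genes at an unadjusted p under 0.05 in limma. Direction held for all 15 under every alternative that measured them.

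More guidance genes stood apart at the later times. At 6 hours 0 guidance genes were at least 2-fold higher with dox, where 0.271 percent of all genes tested were, and 0 were at least 2-fold lower, where 0.468 percent were. At 12 hours Sema6d and Efnb1 were at least 2-fold higher (1.27 percent of all genes) and Sema3c, Sema3d, Sema3e, Sema4d and Sema6a at least 2-fold lower (2.25 percent of all genes). At 24 hours Sema6d, Efnb1, Ephb1, Epha7 and Efna5 were at least 2-fold higher (3.12 percent of all genes), and Sema4d, Sema3d, Sema4f and Sema3c at least 2-fold lower (2.2 percent of all genes). The median difference over the tested guidance genes was -0.03, -0.01 and 0.20 at the 3 times, beside -0.04, 0.03 and 0.02 over all genes tested. The 3 DKK + dox arrays lay above the 3 DKK arrays without overlap for Efnb1 and Plxna4, where 5.1 percent of all genes did so. They lay below without overlap for Sema3d, Sema3e, Sema4d and Sema4f, where 7.09 percent of all genes did so. These counts, 2 and 4 of 45, are close to the shares over all genes. Plxna4, Sema3d and Sema4f exceeded the low-signal limit in 1 condition only, so their separation follows in part from the filter.

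**Figure D1:**
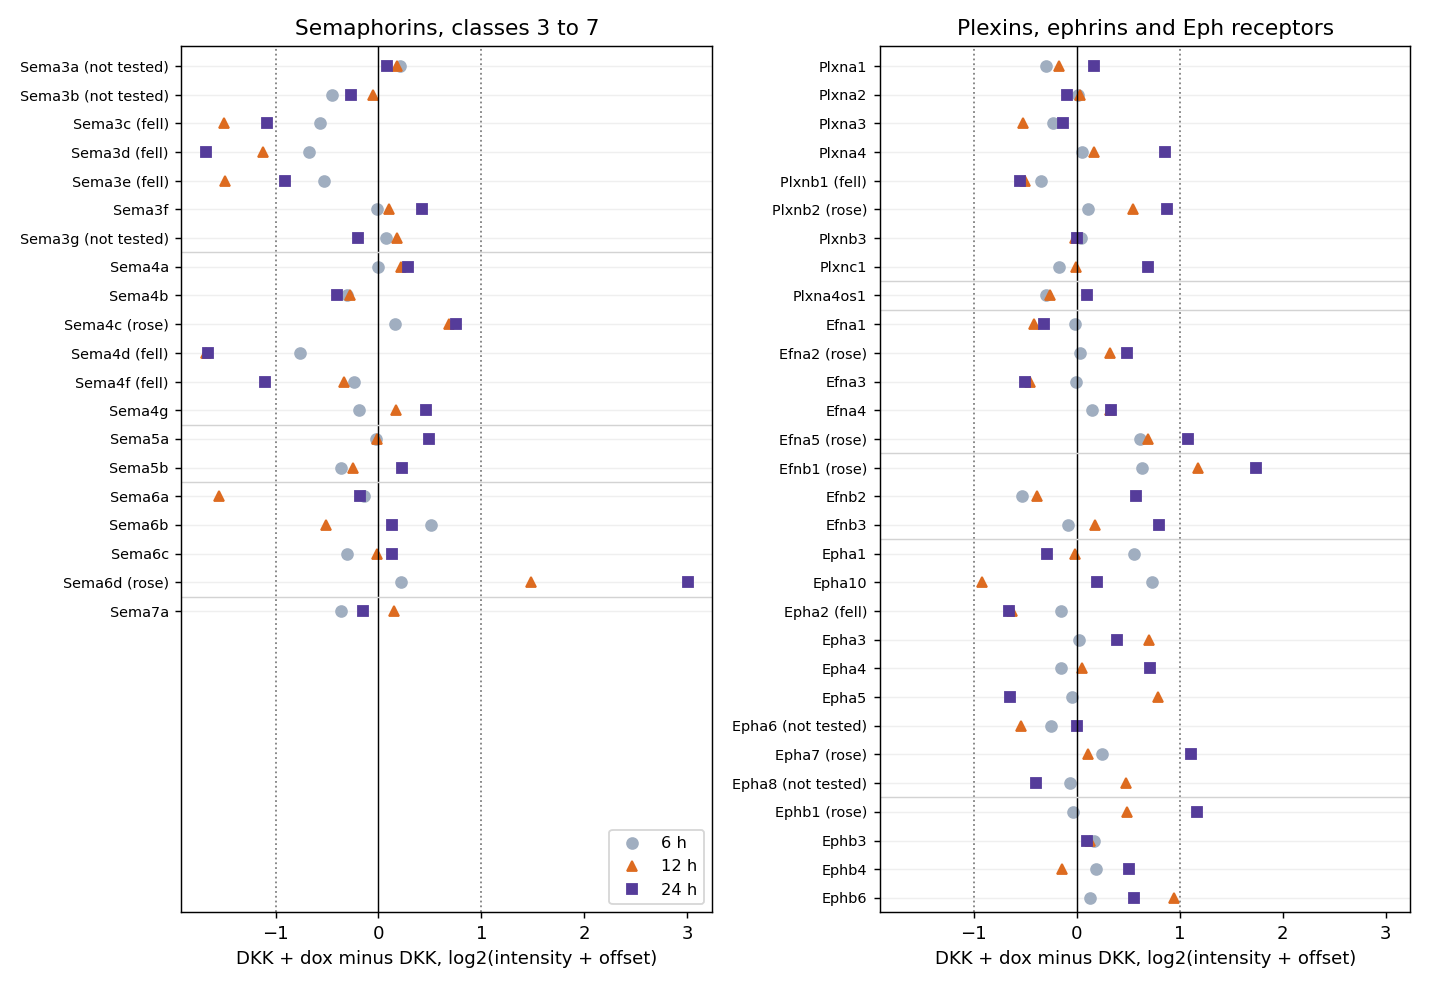
DKK + dox minus DKK at 6 hours (grey circles), 12 hours (orange triangles) and 24 hours (purple squares) for the 50 guidance genes, each point a difference of 2 arrays on the log2 scale, with dotted lines at 2-fold. Most points lie inside the dotted lines, while Sema6d at 24 hours reaches 3.01 and Sema3d, Sema4d, Sema3c and Sema3e lie far to the left.

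Class 3 is the secreted class that signals through neuropilins and plexins. Of the 4 class 3 semaphorins that could be tested 3 fell and none rose. Over all genes tested 6.38 percent fell and 8.32 percent rose. Sema3e, which binds plexin-D1 without a neuropilin, read 237, 357 and 296 without dox at 6, 12 and 24 hours and 158, 114 and 148 with dox. Sema3c, a signal for neural crest and heart outflow tract cells, read 29.6, 137 and 114 without dox and 13.3, 35.0 and 42.7 with dox. Sema3d read 54.3, 43.6 and 48.6 without dox and 26.4, 9 and 1 with dox, where 1 is the lowest value the file holds. Every DKK + dox array lay below its DKK array for these 3 genes, and for Sema3d and Sema3e the conditions did not overlap. Sema3d exceeded the low-signal limit in DKK alone, so its place among the 3 of 4 that fell follows in part from the filter. The Sema3c level without dox was low at 6 hours and high afterwards, and with dox it stayed under or close to the limit.

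In the fit Sema3d fell by 1.83 (SE, the standard error, 0.29, limma adjusted p = 0.0079), Sema3c by 1.51 (SE 0.36, adjusted p = 0.0333) and Sema3e by 1.36 (SE 0.34, adjusted p = 0.0372). Sema3f, the class 3 ligand of neuropilin-2 and the semaphorin with the highest mean intensity, did not pass, with differences of -0.01, 0.10 and 0.42 at the 3 times (limma adjusted p = 0.0817). In the RefSeq gene order of GRCm38.p6 the 3 that fell lie on chromosome 5 together with Sema3a. Sema3d and Sema3a are neighbours there, and 15 protein-coding genes lie between Sema3e and Sema3c, of which 3 were tested and none passed. The untested Sema3a read 19.0 to 32.4 over the 6 arrays, without a level that could be compared. Without the 6 hour arrays Sema3c and Sema3e did not pass (adjusted p = 0.0592 and 0.0715). Without the 24 hour arrays Sema3d did not pass (adjusted p = 0.0746). The fitted values of Sema3c and Sema3e, extended from 6 and 12 hours, were then -2.86 and -2.81. Their measured differences at 24 hours were -1.09 and -0.90.

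Sema4d is a membrane-bound semaphorin whose main receptor is plexin-B1, and both fell. Sema4d read 346, 538 and 510.4 without dox and 195, 155 and 148 with dox, so that at 24 hours its intensity in DKK was 3.46 times that in DKK + dox. The highest DKK + dox array, at 6 hours, lay below the lowest DKK array. The drop was in place by 12 hours and no larger at 24 hours (differences of -0.76, -1.67 and -1.66), and the fitted value was -2.05 (SE 0.29, limma adjusted p = 0.00563). Plxnb1 read 242, 364 and 412 without dox and 186, 251 and 273 with dox, and fell by 0.68 (SE 0.16, adjusted p = 0.0336). It was lower with dox at each time, but its level increased with time in both conditions, so the 2 sets of arrays overlapped. The receptor tyrosine kinase Met, which associates with plexin-B1 in the membrane, moved with them: it read 77.7, 147 and 174 without dox and 54.5, 34.0 and 48.6 with dox, and fell by 1.82 (SE 0.32, adjusted p = 0.0118). Plxnb1 did not pass without the 6, 12 or 24 hour arrays (adjusted p = 0.0713, 0.0722 and 0.1), and without the 24 hour arrays the fitted values were -1.08 for Plxnb1, -3.29 for Sema4d and -2.90 for Met, of which the last 2 passed.

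Sema4c and its receptor gene Plxnb2 rose. Plxnb2 read 188, 226 and 249 without dox and 203, 341 and 475 with dox, and rose by 0.90 (SE 0.15, limma adjusted p = 0.00996). Sema4c read 104, 171 and 208 without dox and 119, 287 and 364 with dox, and rose by 0.86 (SE 0.18, adjusted p = 0.0212). At 6 hours neither was far from its DKK array, and at 24 hours the DKK + dox intensity was 1.90 times the DKK intensity for Plxnb2 and 1.75 times for Sema4c. Within class 4 and the B plexins, a ligand and receptor gene known to pair (Sema4d and Plxnb1) thus fell while another such pair (Sema4c and Plxnb2) rose. Of the other class 4 genes, the membrane-bound Sema4f fell by 1.01 (SE 0.27, adjusted p = 0.0483), with 28.6, 37.5 and 42.1 without dox and 21.1, 25.4 and 8.69 with dox. Its level sat near or below the low-signal limit throughout. Sema4a, Sema4b and Sema4g did not pass. Without the 24 hour arrays Sema4c and Plxnb2 did not pass (adjusted p = 0.12 and 0.151), and Sema4f did not pass without the 6, 12 or 24 hour arrays (adjusted p = 0.0999, 0.0551 and 0.551).

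Sema6d, a membrane-bound ligand of plexin-A1 known from the forming heart, had the largest fitted difference of the tested guidance genes. It read 10.6, 32.0 and 25.5 without dox and 15.7, 126 and 350.1 with dox. Without dox it stayed under the low-signal limit on all 3 arrays, and with dox it exceeded the limit from 12 hours on. At 24 hours the DKK + dox intensity was 13.7 times the DKK intensity, a ratio whose lower value is under the limit, and the fitted difference was 2.90 (SE 0.28, limma adjusted p = 0.00203). It was 2.54 without the 24 hour arrays and did not pass (adjusted p = 0.081). The receptor gene Plxna1, the plexin with the highest mean, did not pass (fitted difference 0.00, adjusted p = 0.996), and read 532, 607 and 565 without dox and 428, 537 and 635 with dox. Sema6a, a membrane-bound ligand of A plexins, read 23.8, 91.9 and 94.9 without dox and 19.7, 17.8 and 81.3 with dox. On this probe set only the 12 hour arrays stood far apart, with a difference of -1.55, and the gene did not pass (adjusted p = 0.354). Another Sema6a probe set differed by -1.07, -0.19 and -0.93 at the 3 times, and a dimmer one by -0.13, -1.01 and -0.07. The time course of Sema6a thus depended on the probe set. No tested gene of classes 5 and 7 passed, and of the 8 plexins 6 did not pass.

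**Figure D2:**
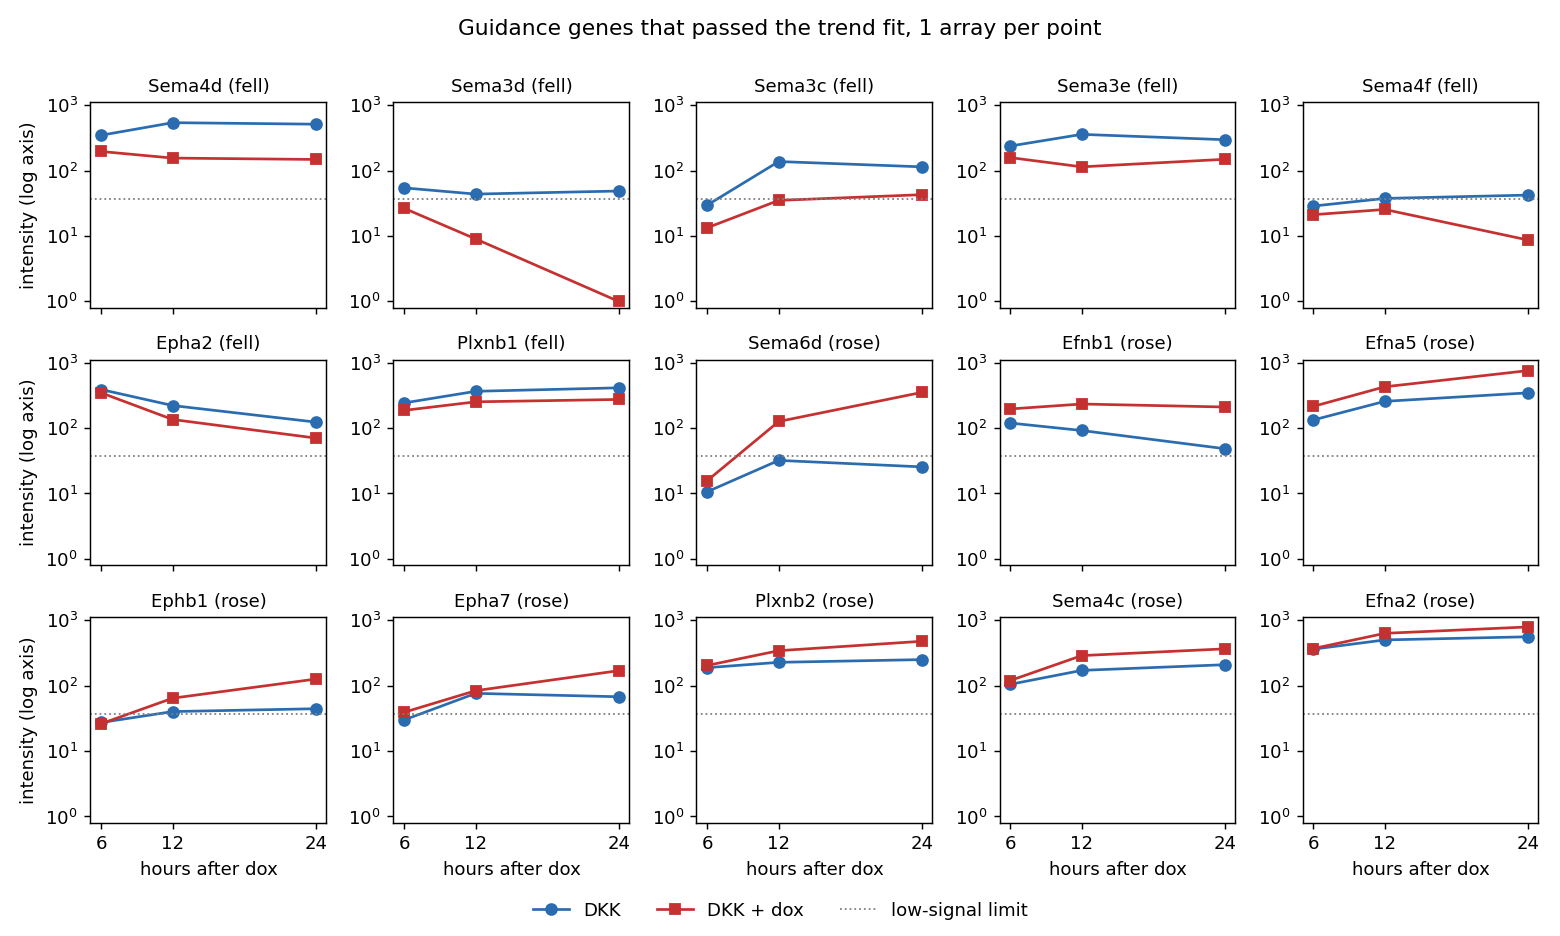
Intensity (log axis) over the hours after dox for the 15 guidance genes that passed the trend fit, with DKK in blue circles and DKK + dox in red squares, 1 array per point, and the low-signal limit of 37.2 as a dotted line. The red line of Sema3d runs down to 1 and that of Sema6d up to 350.1, while Efna2, Epha2 and Plxnb1 show the conditions close together.

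Snail proteins are known to bind E-boxes with the core CAGGTG, read as CACCTG on the other strand, so both spellings were looked up in RefSeq promoter windows of GRCm38.p6 that run from 250 bases before to 50 after each gene start. Windows were given for 43 of the 50 genes, and 7 of them held a match (16.3 percent), where 22.3 percent of all tested genes with a window did. Of the 7 guidance genes that fell 2 held one, Sema3d and Sema4f, and of the 8 that rose 3 did, Plxnb2, Sema4c and Sema6d, each in 1 of its 2 windows. Over all genes with a window, 38.2 percent of those that fell and 13.2 percent of those that rose held one. The guidance genes that fell thus held the letters at 28.6 percent and those that rose at 37.5 percent, over 7 and 8 genes. The 250 bases before the start are shown for both genes that fell with a match and for Sema6d, the gene with the largest rise, to set the letters in their surroundings, with the matches in capitals and each sequence in the direction of its gene.
Sema3d, chr5:12382916-12383165, plus strand: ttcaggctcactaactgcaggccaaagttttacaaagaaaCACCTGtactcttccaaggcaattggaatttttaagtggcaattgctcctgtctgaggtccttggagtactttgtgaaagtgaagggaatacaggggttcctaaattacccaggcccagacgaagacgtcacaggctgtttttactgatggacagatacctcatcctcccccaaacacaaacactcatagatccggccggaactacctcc
Sema4f, chr6:82939770-82940019, minus strand: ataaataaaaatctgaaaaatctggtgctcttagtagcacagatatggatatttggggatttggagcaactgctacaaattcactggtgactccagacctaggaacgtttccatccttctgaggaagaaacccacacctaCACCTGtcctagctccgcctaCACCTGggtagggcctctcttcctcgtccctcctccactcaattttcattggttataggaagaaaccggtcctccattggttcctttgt
Sema6d, chr2:124653331-124653580, plus strand: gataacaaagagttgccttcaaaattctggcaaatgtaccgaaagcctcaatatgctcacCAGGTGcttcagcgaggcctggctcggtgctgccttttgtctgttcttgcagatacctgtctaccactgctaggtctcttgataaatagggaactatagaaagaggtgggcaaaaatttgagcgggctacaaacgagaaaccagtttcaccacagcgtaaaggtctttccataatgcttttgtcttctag
The match lies 210 bases before the start in Sema3d, 110 and 89 bases before it in Sema4f and 190 bases before it in the Sema6d window shown. These are matches of letters, and no measure of Snail binding was made.

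The co-receptors that link semaphorins to plexins did not move as 1 group. Of 9 genes of co-receptors and further semaphorin receptors, all tested, 1 rose and 1 fell, beside 8.32 and 6.38 percent of all genes tested. Nrp1 encodes neuropilin-1, the co-receptor of class 3 semaphorins and of VEGF, and read 63.5, 30.5 and 22.9 without dox and 65.5, 64.9 and 151 with dox. Its level dropped with time without dox, to values under the low-signal limit at 12 and 24 hours. With dox it was kept and then raised, and the fitted difference was 1.80 (SE 0.27, limma adjusted p = 0.00666). It was 1.21 without the 24 hour arrays and did not pass (adjusted p = 0.264). Nrp2, for neuropilin-2, did not pass, with a fitted difference of -0.07 (adjusted p = 0.849) and 131 in both conditions at 24 hours. The gene that fell was Met. Plxnd1, the receptor of Sema3e, was singled out after its values were seen: it read 17.2, 17.4 and 24.7 without dox and 1, 34.0 and 123 with dox, above the limit on the last array only, and did not pass (adjusted p = 0.107). It passed without the 6 hour arrays (adjusted p = 0.0256).

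Inside the cell, 28 genes of semaphorin and plexin signaling were tested. Of these 8 rose and 2 fell, beside 8.32 and 6.38 percent of all genes tested. Mras and Rras, small GTPases of the kind that plexins switch off, rose. Rras rose by 0.99 in the fit. Mras read 61.1, 5.83 and 1 without dox and 92.2, 21.8 and 45.1 with dox, so both 12 hour arrays and the 24 hour DKK array were under the low-signal limit, and its fitted 1.57 is set against values near the lowest of the file. Mical1, an enzyme that oxidises actin downstream of plexins, rose by 1.24, and Farp1, an exchange factor that binds A plexins, by 1.18. Dpysl2, a collapsin response mediator that carries the semaphorin 3A signal to microtubules, rose by 0.81 (SE 0.07, limma adjusted p = 0.00177), with 1444, 2079 and 2831 without dox and 1576, 2871 and 4959 with dox. Its relative Dpysl5 fell by 1.43, so members of this small family went opposite ways. Fyn, Rap1a and Rnd3 also rose, and Rnd2 fell. Without the 24 hour arrays Dpysl2, Mical1 and Rnd2 passed and the other 7 did not, with Farp1 at 0.73 and Rnd2 at -1.57. Without the 6 hour arrays Fyn, Rap1a, Rnd3 and Rnd2 did not pass, and without the 12 hour arrays Fyn did not.

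Among the ephrins, the ligands on the cell surface, 5 A and 3 B genes were tested. Of these 2 and 1 rose and none fell, beside 8.32 and 6.38 percent of all genes tested. Over so few genes, none that fell is close to the share of all genes. Efnb1, which encodes the membrane-spanning ligand ephrin-B1, read 119, 91.7 and 48.3 without dox and 196, 233 and 210 with dox. On this probe set the lowest DKK + dox array lay above the highest DKK array. The gap widened at each time, with differences of 0.63, 1.17 and 1.74. Its intensity went down with time without dox and stayed near its first level with dox, and the fitted difference was 1.89 (SE 0.20, limma adjusted p = 0.00231). Another Efnb1 probe set differed by 0.62, 1.35 and 1.75. A dimmer one, under the low-signal limit in DKK, differed by 1.18, 1.03 and 1.21, so its gap did not widen at each time. Efna5, for the lipid-anchored ephrin-A5, read 133, 256 and 345 without dox and 214, 427 and 754 with dox. It increased with time in both conditions and was higher with dox at each time, and rose by 1.21 (SE 0.18, adjusted p = 0.00614). Efna2, the ephrin-A gene with the highest mean, read 360 and 367 without and with dox at 6 hours and 556 and 786 at 24 hours, and rose by 0.50 (SE 0.12, adjusted p = 0.035). Efna2 did not pass without the 6, 12 or 24 hour arrays (adjusted p = 0.0673, 0.0733 and 0.292), and Efna5 did not pass without the 24 hour arrays (adjusted p = 0.0526), while Efnb1 passed whichever time was left out (adjusted p = 0.00644, 0.00368 and 0.0189).

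Efnb2 encodes ephrin-B2, a ligand known from arteries and somite boundaries, and was the ephrin-B gene with the highest mean. It read 612, 715 and 619 without dox and 416, 544 and 934 with dox. It was lower with dox at 6 and 12 hours (-0.53 and -0.38) and higher at 24 hours (0.58), which a single trend could not describe, and it did not pass (fitted difference 0.19, limma adjusted p = 0.729). Efna1, Efna3 and Efna4, which are neighbours on chromosome 3 in the same RefSeq gene order, did not pass, and their fitted differences were -0.41, -0.56 and 0.41. Efnb3 did not pass either (0.66, adjusted p = 0.11).

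Among the Eph receptors, 2 rose and 1 fell, beside 8.32 and 6.38 percent of all genes tested. Ephb1, a receptor of B ephrins, read 27.3, 40.1 and 44.3 without dox and 26.1, 64.2 and 126 with dox, and rose by 1.07 (SE 0.25, limma adjusted p = 0.0314). Epha7, a receptor of A ephrins known from neural tube closure, read 29.9, 76.0 and 67.5 without dox and 39.1, 83.6 and 169 with dox, and rose by 0.93 (SE 0.25, adjusted p = 0.0441). Both parted most at 24 hours, and at 12 hours they differed by 0.48 for Ephb1 and 0.11 for Epha7. At 6 hours both Ephb1 arrays and the DKK array of Epha7 were under the low-signal limit. Epha2, a receptor of A ephrins found in epithelia and in the early embryo, went the other way, with 387, 221 and 123 without dox and 345, 135 and 70.3 with dox. It dropped with time in both conditions and lay lower with dox at each time, with a fitted difference of -0.78 (SE 0.18, adjusted p = 0.0298). None of the 3 receptor genes passed without the 24 hour arrays: Epha7 had 0.37 (adjusted p = 0.746), Ephb1 0.74 (adjusted p = 0.53) and Epha2 -1.14 (adjusted p = 0.095). Epha2 did not pass without the 6 or 12 hour arrays either (adjusted p = 0.081 and 0.0599), nor did Epha7 without the 6 hour arrays (adjusted p = 0.0767) or Ephb1 without the 12 hour arrays (adjusted p = 0.0503).

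Ephb3, the EphB receptor gene with the highest mean, read 187 to 220 in DKK and 206 to 250 in DKK + dox and did not pass (fitted difference 0.15, SE 0.16, limma adjusted p = 0.586). Ephb4, the receptor of ephrin-B2 known from veins, did not pass (0.36, adjusted p = 0.367). The other 5 tested EphA genes and Ephb6 did not pass. Among the 4 EphB genes all differences at 24 hours were above 0, from 0.10 to 1.17. Among the 7 tested EphA genes 4 were above 0 and 3 below. Over all 14755 genes tested 7712 were above 0.

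Partners of ephrins and Eph receptors inside and beside the cell membrane were tested for 24 genes. Of these 7 rose and 1 fell, beside 8.32 and 6.38 percent of all genes tested. Adam10, the protease known for cutting ephrin-A ligands from the cell surface, read 444, 538 and 472 without dox and 428, 796 and 1084 with dox and rose by 1.09 (SE 0.15, limma adjusted p = 0.00553). Kalrn, an exchange factor downstream of EphB receptors, rose by 1.46 and Itsn1, another, by 0.82. The kinase Abl1 rose by 0.91 and the Rac exchange factor Tiam1 by 0.76. Pick1, a PDZ protein that binds Eph receptors and ephrin-B ligands, fell by 1.43, with 719, 653 and 609.5 without dox and 442, 242 and 288 with dox. The conditions did not overlap for Pick1. With the 24 hour arrays left out Pick1 passed, at -2.72, and the 7 that rose did not, with Tiam1 at 0.36. Nck2 did not pass without the 6 or 12 hour arrays either.

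Of 24 tested genes of slit, netrin and further guidance systems, 4 rose and 1 fell. Flrt3, an adhesion protein that binds Unc5 and Robo receptors, read 258, 118 and 103 without dox and 327, 355 and 375 with dox and rose by 1.89 (SE 0.23, limma adjusted p = 0.00345). As for Efnb1, its level dropped with time without dox and did not with dox. Flrt2 rose by 1.31, but it exceeded the low-signal limit with dox only (34.5, 26.1 and 21.9 without dox), and so had to differ to be tested. The slit receptor Robo1 rose by 0.79 and the netrin receptor Unc5b by 0.48, while the chemokine Cxcl12 fell by 1.22. Without the 24 hour arrays Flrt3 and Cxcl12 passed, the latter at -2.35, and Flrt2, Robo1 (1.27) and Unc5b did not. Cxcl12 did not pass without the 6 hour arrays, nor Unc5b without the 12 hour arrays. Over the 4 lists together, 20 of 85 tested partner genes rose and 5 fell, and 9 of the 85 exceeded the limit in 1 condition only. Over all genes tested the shares were 8.32 and 6.38 percent, and no test was made of a list as a whole.

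**Figure D3:**
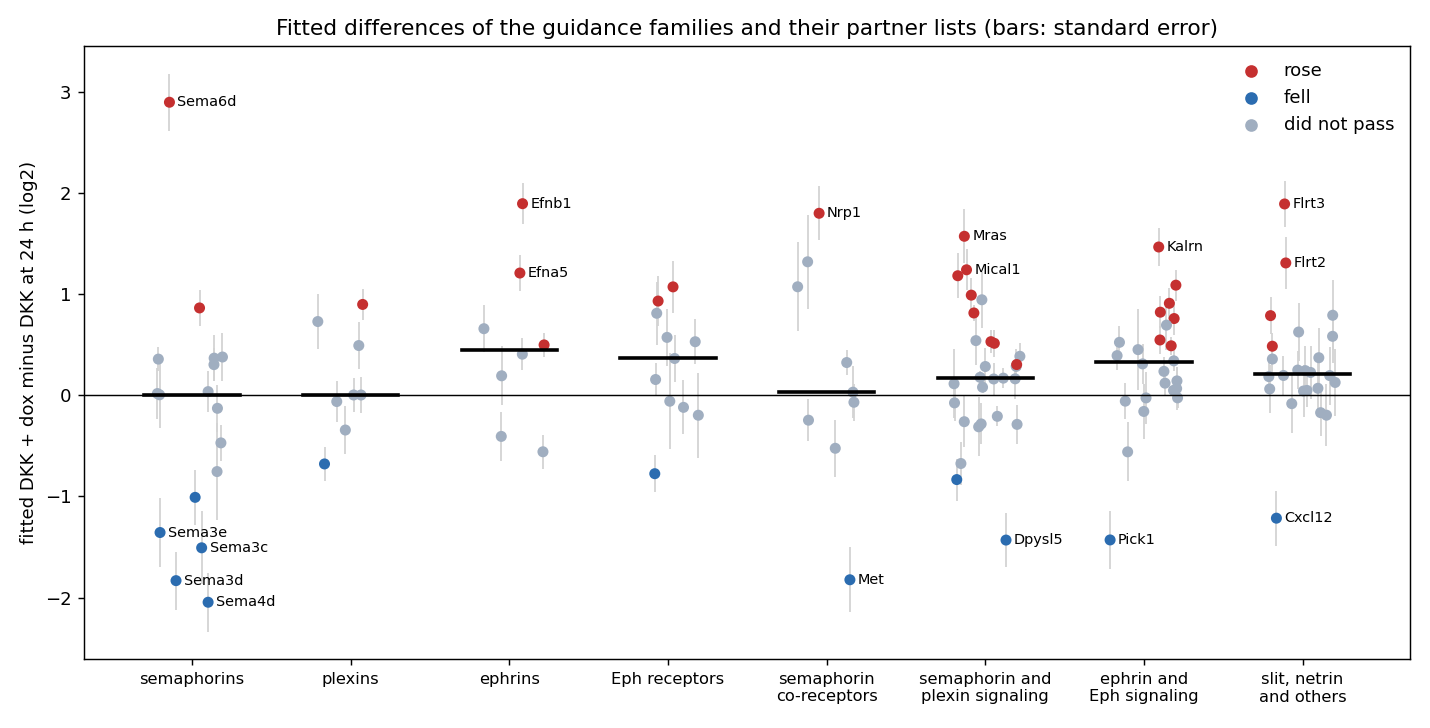
Fitted DKK + dox minus DKK at 24 hours on the log2 scale for each tested gene of the guidance families and of the 4 partner lists, with standard errors as grey bars, the median of each group as a black line, and genes that rose in red and fell in blue. Semaphorins spread from -2.05 to 2.90 about a median near 0, and none of the 5 ephrin-A and 3 ephrin-B genes tested is blue.

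Without dox the guidance genes moved over time too. Between the 6 and 24 hour DKK arrays Sema3c, Sema6a, Efna5 and Epha1 were at least 2-fold higher at 24 hours, where 2.51 percent of all genes were. Epha2, Efnb1 and Plxna4os1 were at least 2-fold lower, where 4.26 percent of all genes were. The counts of 4 higher and 3 lower genes became 6 and 1 when each array was centred on its median and also after quantile normalization. Centring moved the median of all genes from -0.08 to 0.07. The median over the tested guidance genes was 0.29 before centring. These are differences of 2 arrays with no test, and they share the 24 hour DKK array with the difference made by dox at that time. For Efna5 the 24 minus 6 hour difference without dox was 1.25 and the dox difference at 24 hours 1.08. For Efnb1 they were -1.02 and 1.74, for Sema3c 1.42 and -1.09, and for Epha2 -1.50 and -0.66.

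Other probe sets of the same genes gave further readings at 24 hours. All 3 probe sets of Efnb1 were higher with dox (1.21, 1.74 and 1.75), and all 4 of Sema3e were lower (-0.32, -0.90, -1.01 and -1.11). Both of Plxnb1 were lower (-0.56 and -0.55), and a further probe set of Epha7 was higher (1.14). The other probe sets of Sema4d read -0.66 and 0.11, those of Sema6d 0.59, 0.12 and -0.25, that of Sema3c -0.16, that of Sema3d 0.19 and that of Efna5 0.05. Nearly all of these had a mean intensity near or under the low-signal limit, so the calls of these 5 genes rest on a single probe set each. When all probe sets of a gene were averaged, Efna5, Epha7, Sema3c, Sema3d and Sema4f did not pass.

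**Figure D4:**
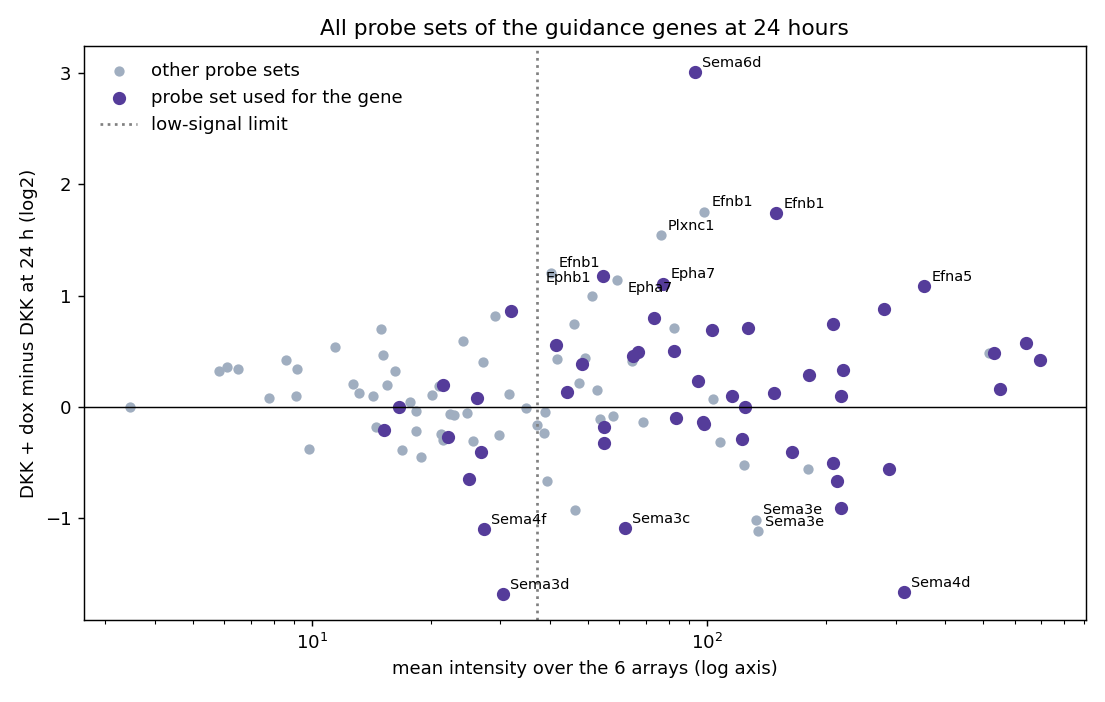
DKK + dox minus DKK at 24 hours on the log2 scale against the mean intensity over the 6 arrays on a log axis, for all 115 probe sets of the guidance genes, with the probe set used for each gene in purple, other probe sets in grey and the low-signal limit as a dotted line. All probe sets of Efnb1 lie above 1 and all of Sema3e below 0, and a Plxnc1 probe set that was not used reaches 1.54.

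Markers of other cell types were read on the same arrays, since fewer cells of a type and less RNA per cell cannot be told apart in whole cultures. The summed intensity of 7 genes of pluripotent and epiblast cells was 27596 to 29585 in DKK and 23462 to 26647 in DKK + dox, and all 7 exceeded the low-signal limit on some array. Of these 3 fell, where 6.38 percent of all genes tested did. Fgf5 fell by 2.63 with 1821 without dox and 541 with dox at 24 hours, Sox2 by 0.32 and Utf1 by 0.32. That of 12 genes of endothelium and blood was 829 to 1344 in DKK and 938 at 6 hours, 4083 at 12 hours and 4180 at 24 hours in DKK + dox. Of these 12 genes 8 rose, Kdr, Fli1, Tal1, Etv2, Cdh5, Tek, Lmo2 and Cd34, where 8.32 percent of all genes tested did. Etv2 made up much of the sum with dox, with 2572 at 12 hours and 1257 at 24 hours. Pecam1, Tie1 and Emcn never exceeded the limit. Cdh5 exceeded it on the 24 hour DKK + dox array only. These markers rose over the same day as Nrp1, Sema6d, Ephb1 and the other genes that rose. At 6 hours the 9 tested genes of this list differed by -0.52 to 0.47 and the tested guidance genes by -0.76 to 0.73. Each is a difference of 2 arrays. The part of these markers in the results was not tested. The sum of 9 neural genes was 960 to 1328 in DKK and 937 to 1500 in DKK + dox, that of 12 endoderm genes 1913 to 3533 and 2085 to 3341, and that of 8 feeder fibroblast genes 334 to 619 and 393 to 474. Of the neural genes Tubb3 rose (191 and 546 at 24 hours without and with dox) and none fell. Without and with dox at 6 hours, Sox1 read 275 and 127 and Dcx 6.21 and 135, and neither passed. At 24 hours the endoderm sum was 1913 without dox and 3096 with dox. Of the endoderm genes Sox17 (79.9 and 393 at 24 hours without and with dox), Sox7 (25.1 and 356) and Dab2 (136 and 344) rose, and of the feeder genes Fbln2 rose (17.3 and 58.9). Their part in the results was not tested. Cdh1, for E-cadherin, a known target of Snail, differed by -0.37, -1.05 and -1.02 at the 3 times.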

How the data were processed

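RNA from 6 cultures was measured on 6 Affymetrix Mouse 430 2.0 arrays, grouped by the labels (DKK or DKK + dox, 3 times). Normalization and modeling by the authors used dChip, and they deposited linear intensities with a lowest value of 1. The dChip version is not given in the sources used here. Of 45037 probe sets, 34945 carried 1 symbol in the platform annotation. The rest, with more than 1 symbol or no symbol, were left out, and Ephb2 is not analysed here. For a gene with several probe sets, the one with the highest mean was taken. The offset of 20.6 and the low-signal limit of 37.2 are the 25th and 40th percentiles of all values. The number of arrays limits the precision.

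limma 3.58.1 in R 4.3.3 (lmFit, eBayes with an intensity trend) fitted the time as a block of 3 levels and a DKK + dox difference in proportion to hours, with 2 residual and 5.5 prior degrees of freedom. Adjustment was by Benjamini-Hochberg, at a threshold of 0.05. The fit was tested on simulated data in which 200 of 14755 genes grew apart in proportion to hours. It found 71 percent of the genes with a log2 change of 1 and 100 percent with a change of 2, and made 15 false calls. The simulated noise came from the scatter about the same fit and held no spread between cultures. These figures thus do not cover such spread or changes of another time course. Alternatives changed the offset, the normalization, the filter, the choice of probe set, the fold counted, the model and the times included. The genes named are those that passed, were at least 2-fold apart at a time or had the highest mean of a family, and the partners that passed with the largest differences; others are named as not passing. The members and lists were chosen with earlier results of these data known. Python 3.11.15 and matplotlib 3.10.9 made the figures. The miRNA arrays and RT-PCR data were not analysed here.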

Additional observations from a re-analysis of the deposited data

Results flagged for a closer look

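Efnb2 was singled out because its difference between DKK + dox and DKK turned from -0.53 at 6 hours to 0.58 at 24 hours. Sema6b, a membrane-bound semaphorin of class 6, was singled out because its difference turned from 0.51 at 6 hours to -0.51 at 12 hours, with intensities of 27.8 to 57.0. Each of these is a single array against another, and the difference between the times was not tested.

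A probe set of Plxnc1, the receptor of Sema7a, that was not used in the comparisons differed by 1.54 at 24 hours, with 42.8 in DKK and 164 in DKK + dox, where the probe set used for the gene differed by 0.69 and did not pass. The difference was not tested.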

How the results depend on the processing

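The calls depended on the model. Under a model with an equal difference at all times, 0 guidance genes rose and 0 fell, as 0 of all 14755 genes did in limma (lowest adjusted p 0.0516), while 14 guidance genes and 2927 of all genes had an unadjusted p under 0.05. The counts of guidance genes that rose and fell, 8 and 7 as reported, were 2 and 2 with time as a straight line, 2 and 1 without the intensity trend, 6 and 4 when probe sets were averaged, 6 and 2 without the 6 hour arrays, 6 and 4 without the 12 hour arrays, and 1 and 3 without the 24 hour arrays, where 4 of the 15 calls were kept. They were 8 and 7 after quantile normalization or centring of each array, without a filter and with the offset at the 40th percentile, and 6 and 5 with a filter at the 60th percentile. All 15 kept their direction under every alternative that measured them. Efnb1 kept its call under 13 of 14 alternatives and Sema4d and Sema6d under 12 of 14, while Sema4f kept it under 4 of 13 and Epha7 under 6 of 14. Efna2, Epha2, Plxnb1 and Sema4f lost their call whichever time was left out.

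The partner genes that rose and fell, 20 and 5 as reported, were 9 and 3 when probe sets were averaged, 0 and 0 with a constant difference, 1 and 0 with time as a straight line and 3 and 0 without the intensity trend. Those that rose were 3 without the 24 hour arrays, and those that fell were 3 without the 6 hour arrays.

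At 6 hours, 1 guidance gene was at least 2-fold higher and 2 were lower with an offset of 1, 1 was higher with plain probe sets only, and 3 and 2 passed 1.5-fold. At 12 hours, 5 were higher with an offset of 1, 1 was higher and 1 lower when probe sets were averaged, and 7 were higher by 1.5-fold. At 24 hours, 3 were higher and 2 lower with the offset at the 40th percentile, 2 were lower with the filter at the 60th percentile, 2 were higher and 0 lower when probe sets were averaged, and 11 and 7 passed 1.5-fold. In the DKK arrays, the counts at least 2-fold higher and lower after 24 hours, 4 and 3 as reported, were 6 and 1 after quantile normalization and 6 and 1 after centring.

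The sign turned for 3 genes that did not pass. Efnb2 had -0.005 when probe sets were averaged, -0.11 with a constant difference and -1.04 without the 24 hour arrays. Plxna1 had -0.035 with quantile normalization, -0.20 when probe sets were averaged, -0.10 with a constant difference and -0.51 without the 24 hour arrays. Nrp2 had 0.16 when probe sets were averaged and 0.012 without the 12 hour arrays. The cause of these changes was not tested. The time point was a block in the reported fit and in every alternative but the straight line, so the 2 conditions were compared within each time.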
